A study of Mus musculus with 6 samples.

Results

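Read densities of an H4K5 acetylation ChIP-Seq experiment were examined over 8 genes that write or read histone acetylation: the lysine acetyltransferase genes Crebbp, Ep300, Kat2a, Kat2b, Kat5 and Hat1, and Brd2 and Brd3, which encode BET readers. The genes were taken from a list of names whose rule uses no measured value, although the list was drawn up with earlier results of these data known, and all 8 were found among the 37273 genes of the annotation, 22367 of them protein-coding. The libraries came from whole hippocampus of C57/BL6 mice that the labels give as 6 months old. Fear-conditioned mice (FC) received a foot shock in a context in repeated training sessions, while the control group (CON) met the same context unshocked, so that context exposure and the memory test were common to both. Tissue was collected about an hour after the last memory test. Each group has 1 library immunoprecipitated with an antibody to acetylated lysine 5 of histone H4 (H4K5ac-ChIP), 1 mock library with IgG (IgG-IP) and 1 of genomic DNA without immunoprecipitation (input). The methods describe several hippocampal samples per group, but with a single library of each kind no spread between animals is known, and every ratio below compares libraries, not conditions. Whole hippocampus holds neurons, glia and vessel cells, so that less acetylation per cell and fewer acetylated cells cannot be told apart.

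Acetyltransferases transfer an acetyl group from acetyl-CoA to lysines of the histone tails, and bromodomains are the protein modules that bind such acetylated lysines. CREBBP (CBP) and its paralog p300, encoded by Ep300, are coactivators recruited by CREB and many other transcription factors, and mutations of CREBBP or EP300 cause Rubinstein-Taybi syndrome, a developmental disorder with intellectual disability. KAT2A (GCN5) and KAT2B (PCAF) are catalytic subunits of SAGA-type complexes and acetylate mainly histone H3. KAT5 (TIP60) is the catalytic subunit of the NuA4-type complex that acetylates H4 and H2A. HAT1 acetylates newly made histone H4 on lysines 5 and 12 before it enters chromatin. BRD2 and BRD3 belong to the BET family, whose tandem bromodomains bind acetylated H4 and couple it to transcription.

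All positions are 1-based coordinates of mm9 (NCBI build 37). On the plus strand lie Ep300 at chr15:81415781-81482507, Kat2b at chr17:53706186-53812045 and Hat1 at chr2:71227015-71279679. On the minus strand lie Crebbp at chr16:4084048-4213404, Kat2a at chr11:100566060-100573779, Kat5 at chr19:5603017-5610050, Brd2 at chr17:34248965-34259262 and Brd3 at chr2:27301099-27363182. Kat5, Kat2a and Brd2 are short genes of 7.03, 7.72 and 10.3 kb, and Crebbp and Kat2b span 129 and 106 kb, so that fewer reads stand behind the first 3. Brd3 has an annotated start from which only 1 of its 7 coding transcripts begins, and 5 of the 7 begin within 1 kb of each other around a start 31976 bp downstream. Where a gene body is named below it runs from the first TSS to the last TTS, and the promoter is the 5 kb upstream of that first TSS.

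The sequence immediately upstream of the start differed widely among the members, and 250 bases of the reference are shown for 5 of them, from CpG-rich to CpG-poor, 5′ to 3′ on the strand of the gene, with CpG dinucleotides in capitals. Over 22362 protein-coding starts the median was 8 CpG sites in such 250 bases. Crebbp (chr16:4213405-4213654, minus strand) has 44 and Brd2 (chr17:34259263-34259512, minus strand) 25. Kat2a (chr11:100573780-100574029, minus strand) has 11 and Hat1 (chr2:71226765-71227014, plus strand) 4. Brd3 (chr2:27363183-27363432, minus strand) has 1 CpG site at its annotated start, from which most of its coding transcripts do not begin. Of the members not shown, Ep300 has 24, Kat5 18 and Kat2b 6.
Crebbp: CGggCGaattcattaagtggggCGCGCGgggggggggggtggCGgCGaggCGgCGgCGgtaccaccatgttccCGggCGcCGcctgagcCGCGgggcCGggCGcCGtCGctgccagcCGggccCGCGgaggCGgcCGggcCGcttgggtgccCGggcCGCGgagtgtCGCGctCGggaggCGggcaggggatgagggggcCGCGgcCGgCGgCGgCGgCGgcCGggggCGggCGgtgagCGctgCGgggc
Brd2: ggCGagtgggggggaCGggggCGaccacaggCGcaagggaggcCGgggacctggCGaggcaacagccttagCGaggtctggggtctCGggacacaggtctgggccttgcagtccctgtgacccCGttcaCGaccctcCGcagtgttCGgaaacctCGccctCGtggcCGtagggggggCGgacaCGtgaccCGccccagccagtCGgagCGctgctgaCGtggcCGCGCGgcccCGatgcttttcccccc
Kat2a: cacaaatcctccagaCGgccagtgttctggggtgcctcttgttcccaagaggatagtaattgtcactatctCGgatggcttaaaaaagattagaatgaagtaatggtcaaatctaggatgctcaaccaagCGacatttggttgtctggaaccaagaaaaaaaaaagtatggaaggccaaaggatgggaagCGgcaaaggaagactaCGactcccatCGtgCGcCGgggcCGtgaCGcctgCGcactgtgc
Hat1: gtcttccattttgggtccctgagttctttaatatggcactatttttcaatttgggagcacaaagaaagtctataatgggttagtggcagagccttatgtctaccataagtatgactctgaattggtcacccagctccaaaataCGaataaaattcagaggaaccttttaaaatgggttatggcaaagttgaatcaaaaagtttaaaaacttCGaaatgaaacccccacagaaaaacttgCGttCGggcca
Brd3 annotated start: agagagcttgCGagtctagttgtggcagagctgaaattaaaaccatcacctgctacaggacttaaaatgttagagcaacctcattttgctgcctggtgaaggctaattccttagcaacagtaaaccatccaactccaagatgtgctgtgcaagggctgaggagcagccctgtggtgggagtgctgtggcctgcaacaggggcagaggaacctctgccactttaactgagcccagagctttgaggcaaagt

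In the window from 250 bases before to 50 after the annotated start, no member held the cAMP response element TGACGTCA, which 2.33% of all 22362 promoters hold on either strand. Its first 5 letters TGACG, counted wherever they occur and so also inside the full element, were present in 4 members (Ep300, Kat2a, Kat5 and Brd2) and in 23.3% of all promoters. The GC box GGGCGG was present in 4 members (Crebbp, Ep300, Brd2 and Brd3) and in 43.4% of promoters, and the CCAAT box CCAAT in 4 (Ep300, Kat2b, Kat5 and Hat1) and in 37.9%. The E-box CACGTG was present in Kat5 and Brd2 and in 7.79% of promoters. TATAAA was in no member and in 13.4% of promoters. The median GC content of all promoters in this window was 55.0%, and the members ran from 38.0% at Hat1 to 82.0% at Crebbp.

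The H4K5ac-ChIP libraries held 31605738 (FC) and 35962226 (CON) aligned reads, the IgG-IP libraries 14549689 and 16491741, and the input libraries 45673239 and 35493806. Density is given as RPKM, reads per kb and per 1000000 aligned reads of the library, with exact 95% Poisson intervals, and ratios of libraries as log2 values with exact 95% binomial intervals. Both cover counting error only. Of the marker genes listed to check the tissue, 7 of 10 neuronal and 4 of 5 glial genes, but 1 of 5 genes of other tissues, were at least 1.5-fold denser in H4K5ac-ChIP than in IgG-IP over the gene body in FC, beside 56.2% of all tested genes. In CON these counts were 6, 4 and 0, beside 51.9%, and the neuronal gene Neurod6 was 1.5-fold lower in both groups. Over all protein-coding genes this ratio rose with GC content, from a median log2 of -0.18 at 36 to 40% GC to 1.49 at 56 to 60% in FC gene bodies. The 2 inputs were unequal in the same respect, since log2 FC over CON of input rose from -0.43 to 0.71 over those steps. Members were therefore also set beside genes in the same 1% step of GC content.

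H4K5ac over gene bodies of the writers and readers was in the middle of the range of all genes. For H4K5ac-ChIP relative to IgG-IP the 8 members had a median log2 value of 0.71 in FC, and in CON of 0.53, while the medians of all tested protein-coding genes were 0.70 and 0.61. In FC 5 of 8 members (Ep300, Kat2a, Kat2b, Kat5 and Brd2) were at least 1.5-fold denser in H4K5ac-ChIP than in IgG-IP, a fold that 56.2% of 19383 tested genes reached. In CON the count was 3 of 8 (Ep300, Kat2a and Kat5), against 51.9% of 19428 genes. Neither count stood out from the background. Over input in place of IgG-IP, 1 of 8 members in FC and 4 of 8 in CON reached this fold, with 22.9% and 42.3% of all tested genes. Relative to IgG-IP, Kat5 had the highest ratio in both groups and Hat1 was near the IgG-IP level. Brd3 was the one member at least 1.5-fold below IgG-IP.

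**Figure D1:**
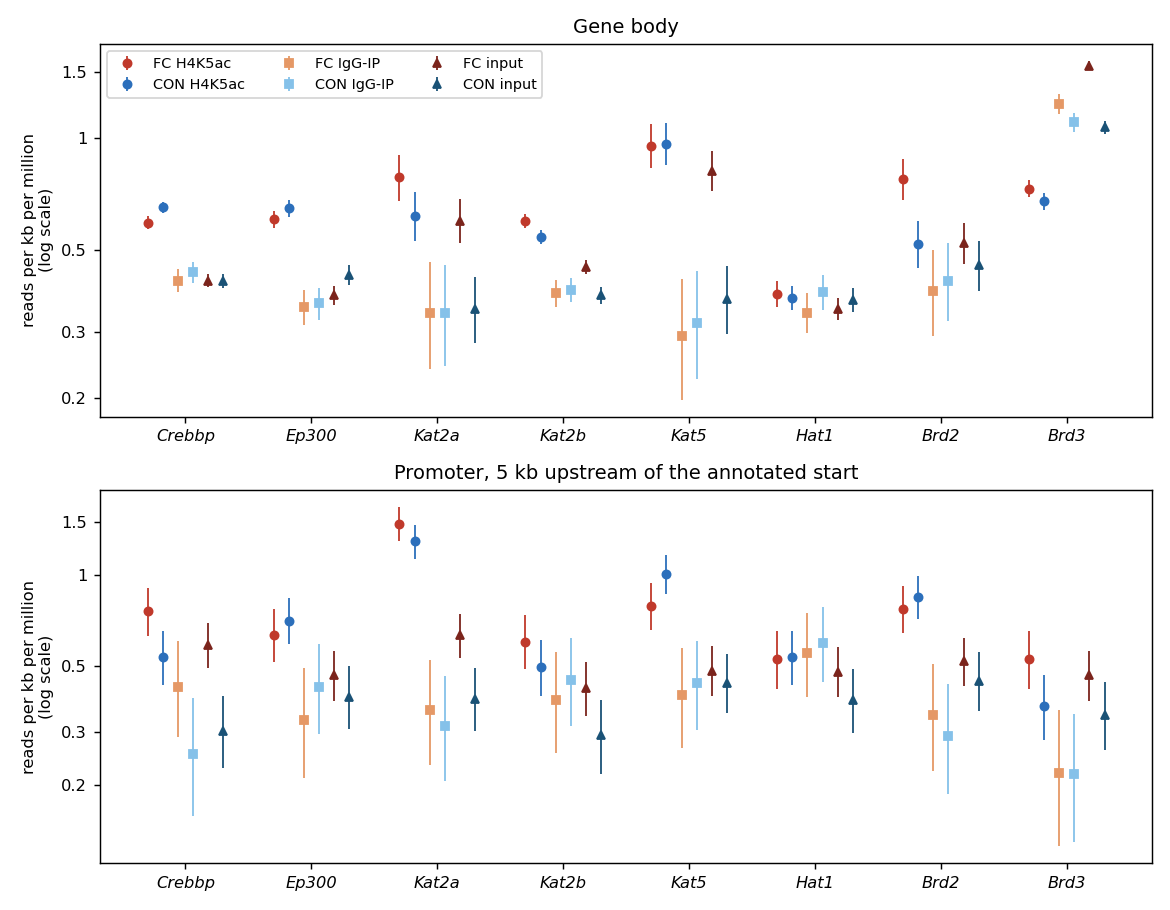
Read density of the 8 genes in each of the 6 libraries, over the gene body (top) and the promoter (bottom). The y axis is RPKM on a log scale, points are single libraries and bars are exact 95% Poisson intervals. Over gene bodies H4K5ac-ChIP lay above IgG-IP for most members, Kat5 being the densest (0.954 in FC and 0.965 in CON), while Brd3 had 1.23 and 1.10 in IgG-IP against 0.730 and 0.675 in H4K5ac-ChIP. Over promoters Kat2a was the densest, with 1.48 and 1.30.

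Crebbp, the CREB-binding coactivator, had a gene-body density of 0.592 RPKM in FC and 0.651 in CON for H4K5ac-ChIP, from 2419 and 3028 reads. The controls gave 0.413 and 0.436 for IgG-IP and 0.413 in each of the inputs. Both H4K5ac-ChIP libraries stood above all 4 control libraries. Its log2 ratio to IgG-IP came to 0.52 (0.40 to 0.64) for FC and to 0.58 (0.47 to 0.69) for CON, that is 1.43-fold and 1.49-fold, so Crebbp lay just under the 1.5-fold line in each. Genes of the same GC content had medians of 0.32 and 0.35, below Crebbp in both groups.

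Ep300, which encodes p300, had H4K5ac-ChIP densities like those of its paralog but lower IgG-IP densities. Its gene body had 0.604 RPKM in FC and 0.646 in CON for H4K5ac-ChIP, 0.351 and 0.359 for IgG-IP, and 0.378 and 0.429 for input. Relative to IgG-IP this was a log2 difference of 0.78 (0.61 to 0.96) in FC and, in CON, of 0.85 (0.69 to 1.01), past 1.5-fold in both groups. Against genes of the same GC content Ep300 was higher than 80.3% of them in FC and 85.8% in CON. Its body holds the small non-coding genes AC160528.1 and U6, which cover 0.241% of it.

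Kat2a and Kat2b both encode acetyltransferases of SAGA-type complexes but differ widely in length. Kat2a had 0.783 RPKM in FC and 0.616 in CON for H4K5ac-ChIP, 0.338 in each IgG-IP library, and 0.598 and 0.347 for input, from 191 and 171 H4K5ac-ChIP reads. The FC input lay close to the CON H4K5ac-ChIP, while both IgG-IP libraries and the CON input were lower. Set against IgG-IP, FC gave a log2 ratio of 1.21 (0.70 to 1.75) and CON of 0.87 (0.38 to 1.38). Genes of the same GC content, 55.2%, had higher medians of 1.44 and 1.14, so Kat2a was below its GC class in each group. Kat2b had 0.598 RPKM in FC and 0.542 in CON for H4K5ac-ChIP, 0.382 and 0.390 for IgG-IP, and 0.451 and 0.377 for input. Its log2 ratio to IgG-IP came to 0.65 (0.51 to 0.78) for FC and to 0.47 (0.35 to 0.60) for CON, close to the medians of its GC class, 0.52 and 0.49.

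Kat5, the NuA4-type H4 acetyltransferase gene, had the highest gene-body density of the members. H4K5ac-ChIP gave 0.954 RPKM in FC and 0.965 in CON, IgG-IP 0.293 and 0.319, and input 0.816 and 0.368. The FC input was far above the CON input here, whereas the IgG-IP libraries were alike within their counting intervals, on 30 and 37 reads. Relative to IgG-IP this was a log2 difference of 1.70 (1.15 to 2.30) in FC and, in CON, of 1.60 (1.09 to 2.14), above 92.6% and 95.4% of all tested genes and above 78.6% and 85.6% of genes of the same GC content. Over input it was 0.23 (-0.04 to 0.49) in FC but 1.39 (1.04 to 1.75) in CON, so the height of Kat5 in FC depended on which control was used. Rnaseh2c, on the other strand, overlaps 6.01% of the gene.

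Hat1, whose product acetylates lysine 5 of H4 before deposition, had the lowest H4K5ac-ChIP density of the 8 over the gene body. Its gene body had 0.381 RPKM in FC and 0.372 in CON for H4K5ac-ChIP, 0.338 and 0.385 for IgG-IP, and 0.346 and 0.366 for input. All 6 libraries lay within this narrow range. Set against IgG-IP, FC gave a log2 ratio of 0.17 (-0.04 to 0.39) and CON of -0.047 (-0.24 to 0.15), both intervals including 0. At 39.6% Hat1 also had the lowest GC content of the members, and genes of that GC content had medians of 0.20 and 0.24. The pseudogene Gm13642 covers 0.735% of the gene body.

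Brd2, a BET reader gene, had 0.774 RPKM in FC and 0.518 in CON for H4K5ac-ChIP, 0.387 and 0.412 for IgG-IP, and 0.521 and 0.454 for input, on 252 and 192 H4K5ac-ChIP reads. The FC H4K5ac-ChIP library was the highest, and the CON one was level with the FC input. Its log2 ratio to IgG-IP came to 1.00 (0.58 to 1.44) for FC and to 0.33 (-0.07 to 0.75) for CON. In its GC class, at 54.7%, Brd2 was higher than 25.5% of genes in FC and 10.4% in CON.

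Brd3, the other BET reader gene, had the reverse order of libraries. Its gene body gave 0.730 RPKM in FC and 0.675 in CON for H4K5ac-ChIP, but 1.23 and 1.10 for IgG-IP and 1.56 and 1.07 for input. All 4 control libraries exceeded both H4K5ac-ChIP libraries, and they stood above 99.7% or more of protein-coding genes. Relative to IgG-IP this was a log2 difference of -0.76 (-0.87 to -0.64) in FC and, in CON, of -0.71 (-0.82 to -0.59).

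The excess of control reads in Brd3 lay in a single stretch of 7 kb, chr2:27351099-27358098, between the far annotated start and the main coding starts. It makes up 11.3% of the gene and held 75.8% and 69.4% of its reads in FC and CON IgG-IP, and 65.2% and 65.5% in the inputs. In H4K5ac-ChIP it held 22.8% and 19.1%. The density there was 24.6 and 17.9 times that of the rest of the gene in IgG-IP, 14.7 and 15.0 times in input, and 2.33 and 1.86 times in H4K5ac-ChIP. Of 20 words of 50 bases sampled evenly from the stretch, 17 occurred once in mm9 and the most frequent occurred 3 times, against 18 of 20 for the whole gene. Without the stretch Brd3 stood above IgG-IP by a log2 ratio of 0.91 (0.72 to 1.11) for FC and 0.70 (0.52 to 0.87) for CON. Both the sign and the side of the 1.5-fold line changed, and the counts of members became 6 and 4 of 8. The stretch was picked for its dense input and removed from Brd3 alone. As IgG-IP was dense there too, its removal was bound to raise the ratio, and the new counts have no like share of all genes. Over the interval of the longest coding transcript, which leaves out the stretch, the values were 1.25 and 1.07. Repeated reads are those beyond the first at a position and strand. Their share was 12.6 to 35.7% over Brd3, highest in FC input, against 7.37 to 18.6% over the other 7 members.

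A gap of the opposite kind lay in Kat2b, where 8 kb at chr17:53741686-53749685 held 0 reads in all 6 libraries. Of 20 words of 50 bases from it, 1 occurred once in mm9 and the median was 3 copies. Without these bases Kat2b had 0.647 and 0.586 RPKM in H4K5ac-ChIP and 0.413 and 0.422 in IgG-IP, with the same log2 ratios as before since no reads were removed. The rule for such stretches was chosen after the profiles had been seen.

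**Figure D2:**
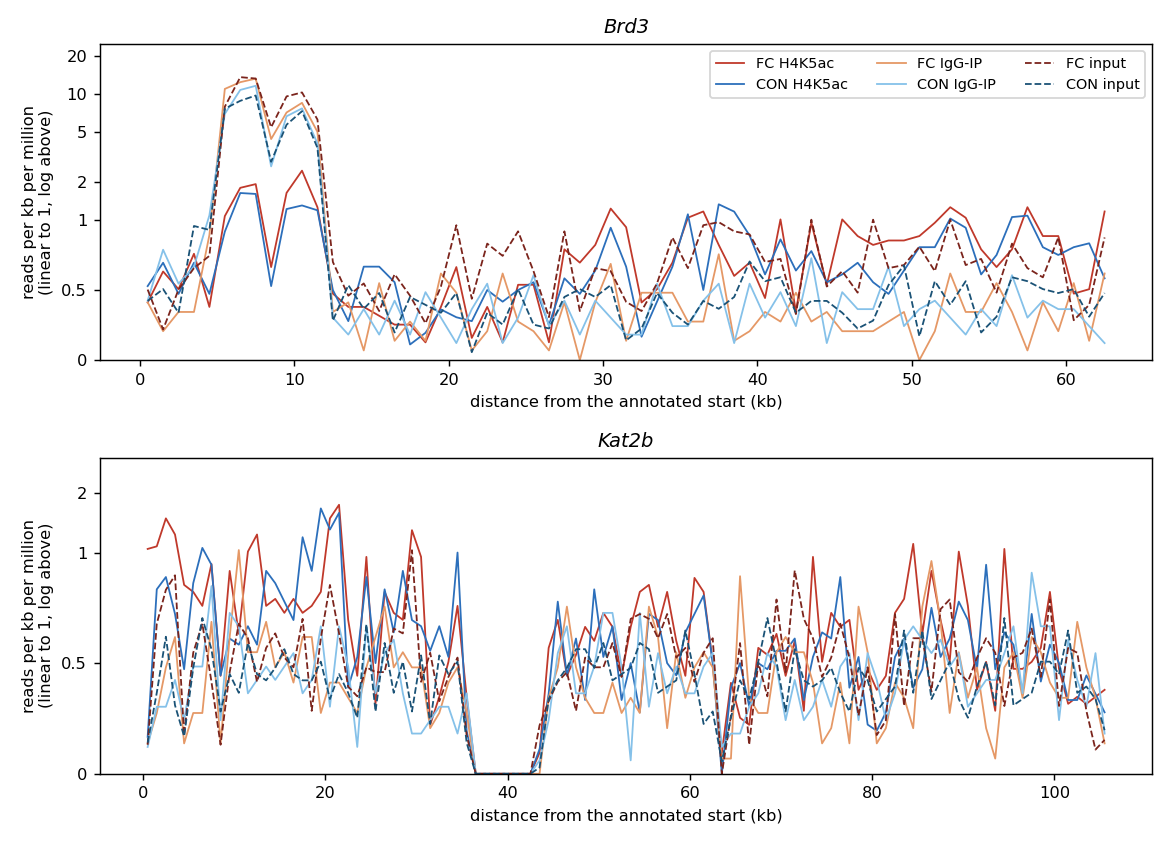
Read density along Brd3 (top) and Kat2b (bottom) in windows of 1 kb, with the distance from the annotated start in kb on the x axis and RPKM on the y axis, linear up to 1 and logarithmic above. Lines are the 6 libraries. In Brd3 the IgG-IP and input libraries are 14.7 to 24.6 times as dense over 7 kb as in the rest of the gene and H4K5ac-ChIP 1.86 to 2.33 times, and in Kat2b all libraries fall to 0 over 8 kb.

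H4K5ac over promoters was above IgG-IP for most of the members, and over 5 kb Kat2a was the highest. Relative to IgG-IP the median log2 value of the members was 0.96 for FC and 0.91 for CON, against 0.68 and 0.58 for all tested genes. In FC 7 of 8 members were at least 1.5-fold denser in H4K5ac-ChIP, a fold that 53.9% of 21334 genes reached, and in CON 6 of 8, against 49.8% of 21379. Hat1 was the member missing in both groups, and Kat2b was missing as well in CON. Over input 2 of 8 promoters in FC and 6 of 8 in CON reached the fold, with 29.4% and 43.2% of genes. Relative to genes of the same GC content the medians of the members were 0.12 and -0.01, so that the members did not stand above promoters of like GC content as a group. On this measure 1 and 2 members were 1.5-fold higher and Hat1 as far below in each group, where the share of all genes was not computed.

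The Kat2a promoter had 1.48 RPKM in FC and 1.30 in CON for H4K5ac-ChIP, 0.357 and 0.315 for IgG-IP, and 0.631 and 0.389 for input. H4K5ac-ChIP was above 99.4% and 99.1% of protein-coding promoters in the 2 groups, while the controls were not in the extremes. Set against IgG-IP, FC gave a log2 ratio of 2.05 (1.46 to 2.70) and CON of 2.04 (1.45 to 2.68), the highest of the members in each, and it was above 90.7% and 96.6% of promoters of the same GC content. This rank depended on the length taken. In the 2 kb next to the TSS Kat2a gave 0.92 (0.20 to 1.70) in FC, above 44.5% of genes and higher than Hat1 alone, and 2.28 (1.24 to 3.54) in CON. Crebbp was the highest member there, at 2.84 (1.41 to 4.76) and 2.68 (1.04 to 5.02), though on 4 and 3 IgG-IP reads. Hspb9 and Rab5c overlap 63.7% of these 5 kb. In the part that no other gene overlaps, the density was 1.48 and 1.29 in H4K5ac-ChIP, on 85 and 84 reads, and 0.567 and 0.234 in IgG-IP, on 15 and 7 reads.

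Crebbp and Ep300 had promoters denser in H4K5ac-ChIP than in IgG-IP in both groups. Crebbp had 0.759 and 0.534 RPKM in H4K5ac-ChIP, 0.426 and 0.255 in IgG-IP, and 0.587 and 0.304 in input, for FC and CON in turn. All 3 FC libraries were above their CON counterparts. Ep300 had 0.633 and 0.706 in H4K5ac-ChIP, 0.330 and 0.424 in IgG-IP, and 0.464 and 0.394 in input. Over IgG-IP the log2 ratio of Crebbp was 0.83 (0.25 to 1.45) for FC and 1.07 (0.37 to 1.82) for CON. That of Ep300 was 0.94 (0.28 to 1.65) and 0.73 (0.19 to 1.32).

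Kat5 and Brd2 had dense promoters as well. Kat5 had 0.791 and 1.01 RPKM in H4K5ac-ChIP, 0.399 and 0.437 in IgG-IP, and 0.482 and 0.440 in input. Brd2 had 0.772 and 0.845 in H4K5ac-ChIP, 0.344 and 0.291 in IgG-IP, and 0.517 and 0.445 in input. In both genes the H4K5ac-ChIP libraries were the densest, and over these 5 kb the CON library stood above the FC one. For Brd2 this order turned at the start of the longest coding transcript, where the 5 kb upstream had 1.06 RPKM in FC and 0.773 in CON, and in the 2 kb next to the annotated start, with 1.03 and 0.779. The log2 ratio over IgG-IP was 0.99 (0.40 to 1.62) and 1.21 (0.68 to 1.76) for Kat5, and 1.17 (0.54 to 1.85) and 1.54 (0.91 to 2.22) for Brd2. At its coding-transcript start Brd2 gave 2.10 (1.40 to 2.89) and 1.75 (1.05 to 2.52), in FC slightly above Kat2a.

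Kat2b, Hat1 and Brd3 had the least dense promoters in FC H4K5ac-ChIP. Kat2b had 0.601 and 0.495 RPKM in H4K5ac-ChIP, 0.385 and 0.449 in IgG-IP, and 0.420 and 0.293 in input, with log2 ratios over IgG-IP of 0.64 (0.02 to 1.31) and 0.14 (-0.43 to 0.74). Hat1 had 0.525 and 0.534 in H4K5ac-ChIP, 0.550 and 0.594 in IgG-IP, and 0.477 and 0.383 in input, with log2 ratios of -0.07 (-0.63 to 0.52) and -0.15 (-0.67 to 0.37). The IgG-IP density at Hat1 was above that of 94.3% and 97.2% of promoters, and against input, in place of IgG-IP, the ratios of Hat1 were 0.14 (-0.29 to 0.56) and 0.48 (0.02 to 0.95). Brd3 at its annotated start had 0.525 and 0.367 in H4K5ac-ChIP, 0.220 and 0.218 in IgG-IP, and 0.464 and 0.344 in input. Upstream of the start of its longest coding transcript Brd3 had 0.848 and 0.590 in H4K5ac-ChIP against 0.316 and 0.291 in IgG-IP. The log2 ratio there was 1.42 (0.78 to 2.13) and 1.02 (0.37 to 1.72), and at the annotated start 1.26 (0.47 to 2.13) and 0.75 (-0.02 to 1.59).

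**Figure D3:**
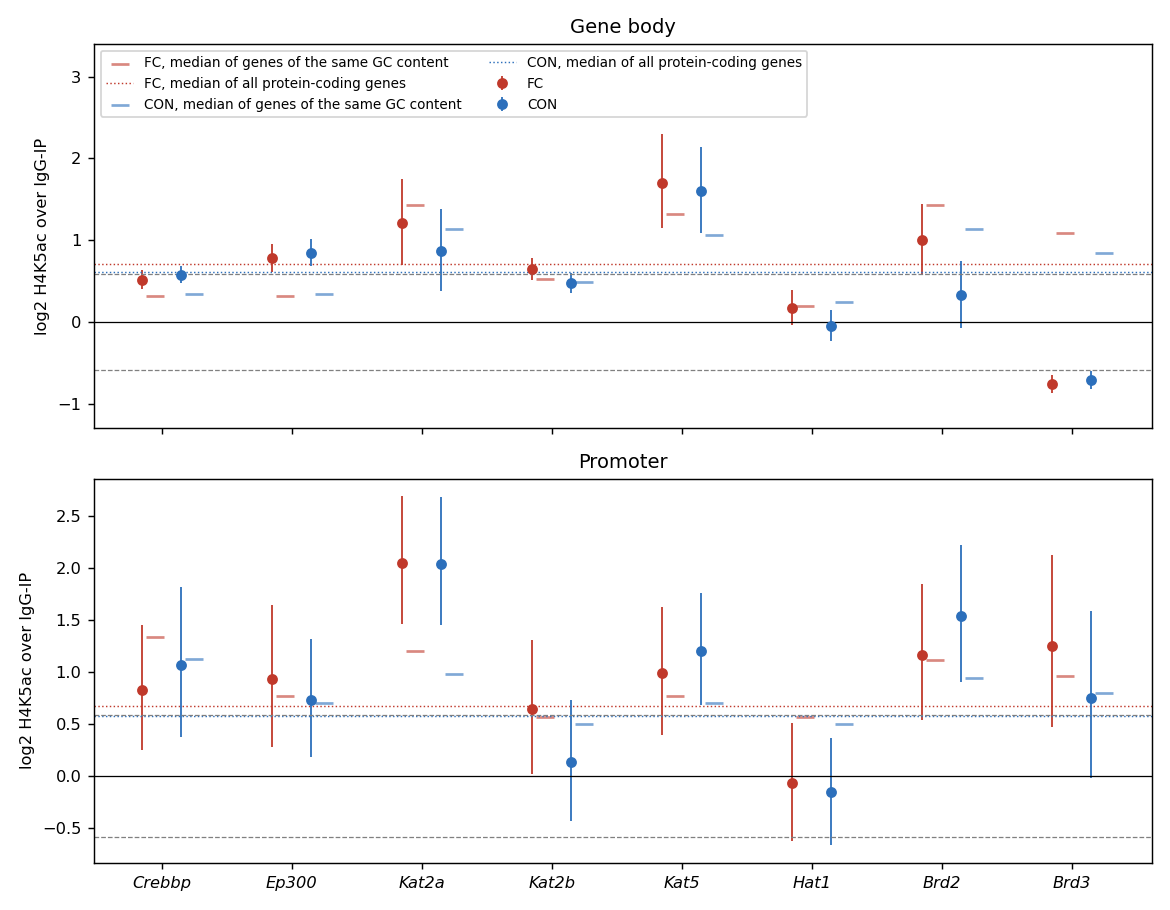
H4K5ac-ChIP relative to IgG-IP, as a log2 ratio, for each gene in FC (red) and CON (blue), over the gene body (top) and the promoter (bottom). Points are ratios of single libraries, bars are exact 95% binomial intervals, short horizontal marks give the median at equal GC content, dotted lines are the medians of all protein-coding genes and dashed grey lines mark 1.5-fold. Kat5 is highest over gene bodies (1.70 and 1.60), Kat2a over promoters (2.05 and 2.04), and Brd3 falls below 0 only over its gene body.

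Around the TSS the members differed in where reads were found. For each gene the densest 1 kb was the one with the most H4K5ac-ChIP reads of FC and CON together, so that a single group could have its own maximum elsewhere. In Crebbp it was centred at -1500 bp from the start, with 57 reads in FC and 40 in CON, against 4 and 3 in IgG-IP and 47 and 18 in input. The 1 kb directly upstream of the start, which holds the CpG-rich bases shown above, was sparse, at 0.221 and 0.111 RPKM in H4K5ac-ChIP and 0.0845 or less in each control library. The first 2 kb of the gene held few reads as well, 14 and 20 in H4K5ac-ChIP, 6 and 12 in IgG-IP and 29 and 20 in input. The log2 density of the first 2 kb over the rest of the gene was -1.43 (-2.31 to -0.68) for FC H4K5ac-ChIP and -1.24 (-1.95 to -0.61) for CON, above 1.06% and 2.50% of genes. In input it was -0.39 and -0.56, and in IgG-IP -1.02 and -0.26, all of the same sign.

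In Brd2 the densest kb of both groups together lay just inside the gene. It was centred 600 bp downstream of the annotated start and held 61 reads of FC H4K5ac-ChIP and 34 of CON, 2 and 5 in IgG-IP, and 26 and 12 in input. In CON alone the kb centred 4.5 kb upstream (1.196 RPKM), 3.5 kb upstream (0.973) and 1.5 kb upstream (1.06) were denser than this one (0.945). The log2 density of the first 2 kb over the rest was 1.18 (0.79 to 1.56) for FC and 0.98 (0.52 to 1.43) for CON, above 94.2% and 93.0% of genes. Neither control followed. Input gave -0.44 in both groups (-0.98 to 0.07 in FC and -1.12 to 0.18 in CON). IgG-IP gave -1.35 (-3.03 to -0.04) and -1.36 (-2.86 to -0.16), on only 5 and 6 reads in the first 2 kb. Counted from the start of the longest coding transcript, 1934 bp further on, the values became 0.72 (0.23 to 1.20) in FC and -0.26 (-0.93 to 0.36) in CON. In CON the beginning was thus no longer denser than the rest. Both controls were lower still from that start, input at -1.22 in FC and -1.17 in CON, and IgG-IP at -0.62 and -1.14.

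In Kat5 and Hat1 the kb with the most reads of both groups lay directly upstream of the start, centred at -500 bp. For Kat5 it held 52 and 86 H4K5ac-ChIP reads against 5 and 10 in IgG-IP, and for Hat1 22 and 38 against 19 and 10. The window of Hat1 was not above IgG-IP in FC (log2 -0.91, -1.86 to 0.06), and in FC alone the kb centred 9.5 kb into the gene was denser, at 0.823 against 0.696 RPKM. In Kat2a the densest kb lay at -2200 bp, with 67 and 71 reads against 5 and 4. Ep300 and Kat2b had theirs far into the gene, at 63600 bp and 21100 bp from the start, with 50 and 36 reads for Ep300 and 67 and 56 for Kat2b. The densest kb of Brd3 fell in its stretch of control reads and was below IgG-IP.

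Over all 8 members the median log2 density of the first 2 kb over the rest was 0.11 in FC and -0.20 in CON, against 0.16 and 0.06 for all genes long enough to be measured. In CON 7 of 8 members, all but Brd2, were below 0, as were 45.9% of 16679 genes. In both CON controls all 8 members were below 0, as were 63.4% of genes in IgG-IP and 62.3% in input. In FC 3 of 8 were in H4K5ac-ChIP (38.8% of genes), 8 of 8 in IgG-IP (62.8%) and 7 of 8 in input (54.7%). In each group the H4K5ac-ChIP value lay above that of input in all members but Crebbp. The medians of all genes were likewise lower in input, at -0.05 in FC and -0.13 in CON. Besides Crebbp and Brd2, the interval lay apart from the median of all genes for 3 members in 1 group each. Kat2b gave 0.75 (0.37 to 1.12) in FC against -0.12 (-0.64 to 0.36) in CON. Ep300 gave -0.60 (-1.16 to -0.09) in CON against 0.030 (-0.47 to 0.49) in FC, but from its longest coding transcript the values were 0.26 and 0.37. Brd3 gave -0.50 (-1.04 to -0.0022) in FC and -0.18 (-0.65 to 0.26) in CON. These 2 values are lowered by its dense stretch, which lies in the rest of the gene, and input gave -2.15 and -1.23 and IgG-IP -2.03 and -0.88. From its longest coding transcript, which leaves out the stretch, Brd3 gave -1.02 (-1.66 to -0.44) and -1.10 (-1.72 to -0.54). Input there gave -0.34 and 0.08, and IgG-IP 0.93 and 0.27. Kat2a gave -0.23 and -0.26 in FC and CON, Kat5 0.19 and -0.048, and Hat1 0.33 and -0.23. The intervals of FC and CON overlapped for each member except Kat2b, whose intervals were narrowly apart, and no test between groups was possible.

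**Figure D4:**
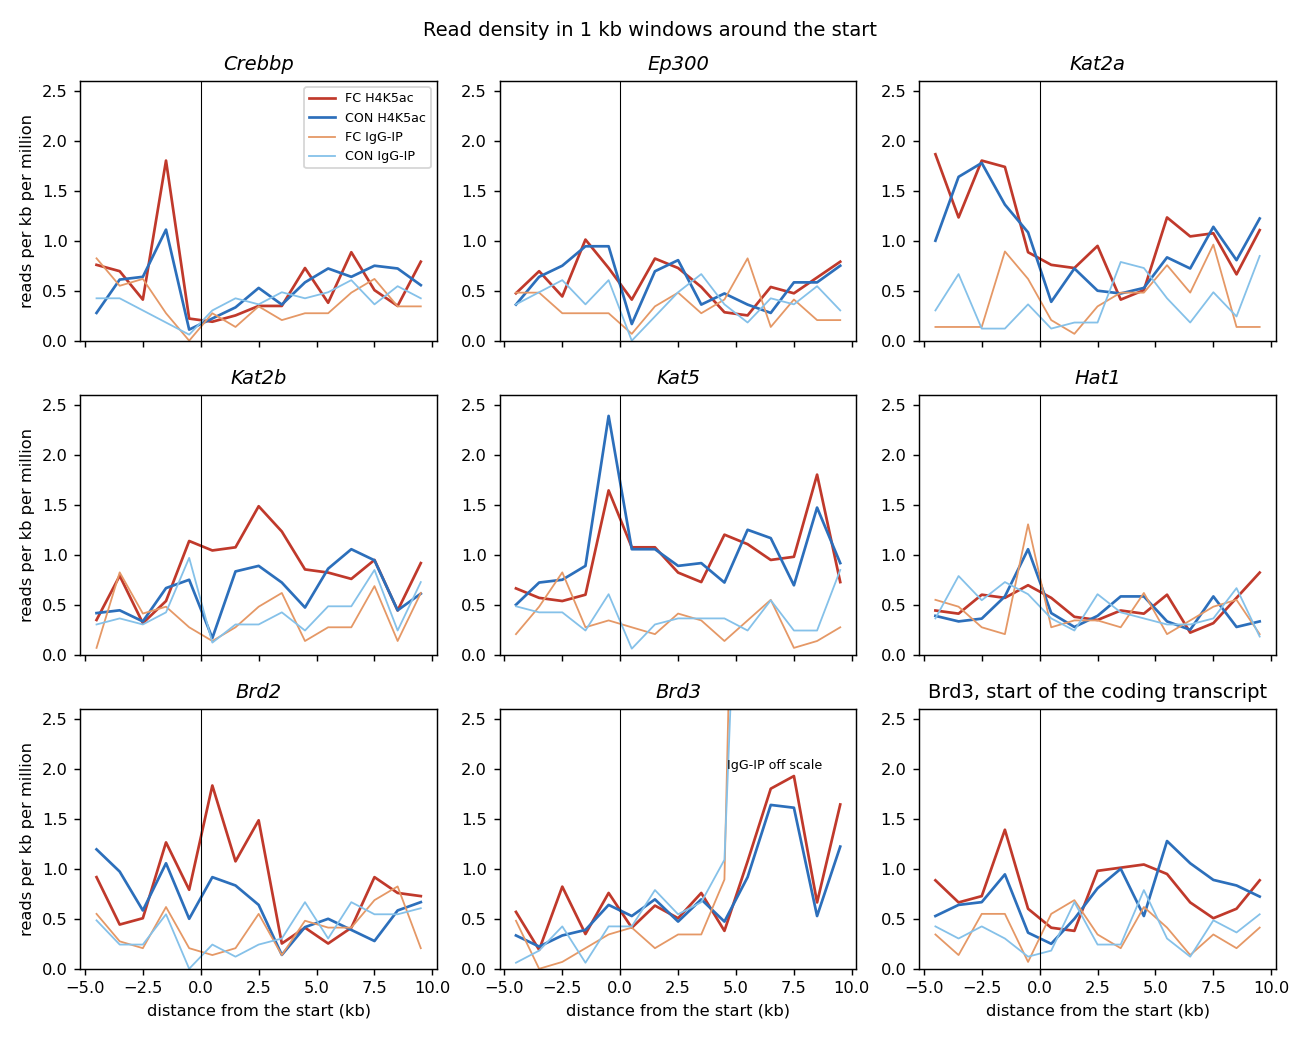
Read density in windows of 1 kb from 5 kb upstream to 10 kb downstream of the annotated start, with distance in kb on the x axis and RPKM on the y axis, where the last panel is centred on the start of the longest coding transcript of Brd3. Lines are the H4K5ac-ChIP and IgG-IP libraries of FC and CON. Crebbp is dense at 1.5 kb upstream (1.80 in FC and 1.11 in CON) and sparse on both sides of its start, Kat5 is dense just upstream (1.65 and 2.39), though in FC not as dense as beyond its end at 8.5 kb (1.80), Brd2 in FC peaks just inside the gene (1.84) and in CON 4.5 kb upstream (1.196), and the IgG-IP lines of Brd3 leave the scale beyond 5 kb.

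None of the writer and reader genes differed by 1.5-fold in H4K5ac-ChIP density between FC and CON over the gene body or the 5 kb promoter. Over gene bodies the members had a median log2 FC over CON of 0.07 in H4K5ac-ChIP and all genes one of 0.04, and 0 of 8 members were 1.5-fold apart in either direction, against 4.64% of 19455 tested genes. Over promoters the median was 0.08 against 0.06, again with 0 of 8 members, against 7.63% of 21107 genes. Beside shares of this size, a count of 0 among 8 genes does not set the members apart. The gene-body values ran from -0.14 at Crebbp to 0.58 at Brd2, and the promoter values from -0.35 at Kat5 to 0.52 at Brd3.

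Brd2 had the largest difference over a gene body, with 0.774 RPKM in FC and 0.518 in CON. The log2 ratio was 0.58 (0.30 to 0.86), 1.49-fold, and above 96.4% of all genes and 92.4% of genes of the same GC content. IgG-IP of Brd2 gave -0.09 and input 0.20. The share of all genes 1.5-fold apart in their first 2 kb was not computed. In the first 2 kb of Brd2 the ratio was 0.71 (0.22 to 1.20), on 89 and 62 reads. Its densest kb was chosen by its H4K5ac-ChIP reads, more of them from FC, so no ratio between groups is given there. The 5 kb upstream of the annotated start gave -0.13 (-0.49 to 0.22), but the 5 kb upstream of the longest coding transcript 0.46 (0.13 to 0.79) and the 2 kb next to the annotated start 0.40 (-0.14 to 0.94), so that the direction depended on the promoter taken. Less the ratio of IgG-IP, Brd2 reached 0.67 and passed the 1.5-fold line, as 11.9% of 18385 genes did in either direction, and less that of input it was 0.38.

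Kat2a followed with a gene-body log2 ratio of 0.35 (0.04 to 0.65), but its input differed by 0.79 in the same direction, so that it was -0.44 less input. Kat2b gave 0.14 (0.05 to 0.23), with input at 0.26, so that less input it was -0.12. In its first 2 kb, where the share of all genes was not computed, it gave 0.99 (0.38 to 1.63), on 63 and 36 reads. Its input in those 2 kb gave 0.72 (-0.15 to 1.64), on 36 and 17 reads, again in the same direction. Brd3 gave 0.11 (0.01 to 0.22) over the gene body, with IgG-IP at 0.16 and input at 0.55, so that it was -0.05 less IgG-IP and -0.44 less input. Without the dense stretch the H4K5ac-ChIP ratio of Brd3 was 0.04.

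Crebbp was lower in FC over its gene body, at -0.14 (-0.22 to -0.06), with IgG-IP at -0.08 and input at 0.00. Its promoter was higher in FC, at 0.51 (0.11 to 0.91), but IgG-IP gave 0.74 and input 0.95 there, and in the 2 kb next to the TSS H4K5ac-ChIP gave 0.75 (0.16 to 1.35), the one 2 kb promoter past 1.5-fold, a fold by which 15.4% of 19351 genes were apart there. All 3 kinds of library were thus higher in FC over the Crebbp promoter, and the part of the controls in the H4K5ac-ChIP difference was not tested. Ep300 gave -0.10 (-0.21 to 0.01) over the gene body and -0.16 (-0.55 to 0.23) over the promoter.

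Kat5 had nearly equal gene-body densities in FC and CON, with a log2 ratio of -0.02 (-0.29 to 0.25), while its input was higher in FC by 1.15. Less input it was -1.16, the one gene body past 1.5-fold on that measure, as were 20.8% of 19378 genes, and less IgG-IP 0.11, and what part the input had in these values was not tested. Its promoter was lower in FC, at -0.35 (-0.69 to -0.01), with IgG-IP at -0.13 and input at 0.13. Hat1 gave 0.03 (-0.12 to 0.19) over the gene body and -0.02 (-0.47 to 0.42) over the promoter. The promoter of Brd3 gave 0.52 (0.03 to 1.01) at the annotated start and 0.52 (0.15 to 0.91) at the coding transcript, with input at 0.43 for the first. In the 2 kb next to the annotated start it was 0.06 (-0.65 to 0.78), on 34 and 37 reads.

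**Figure D5:**
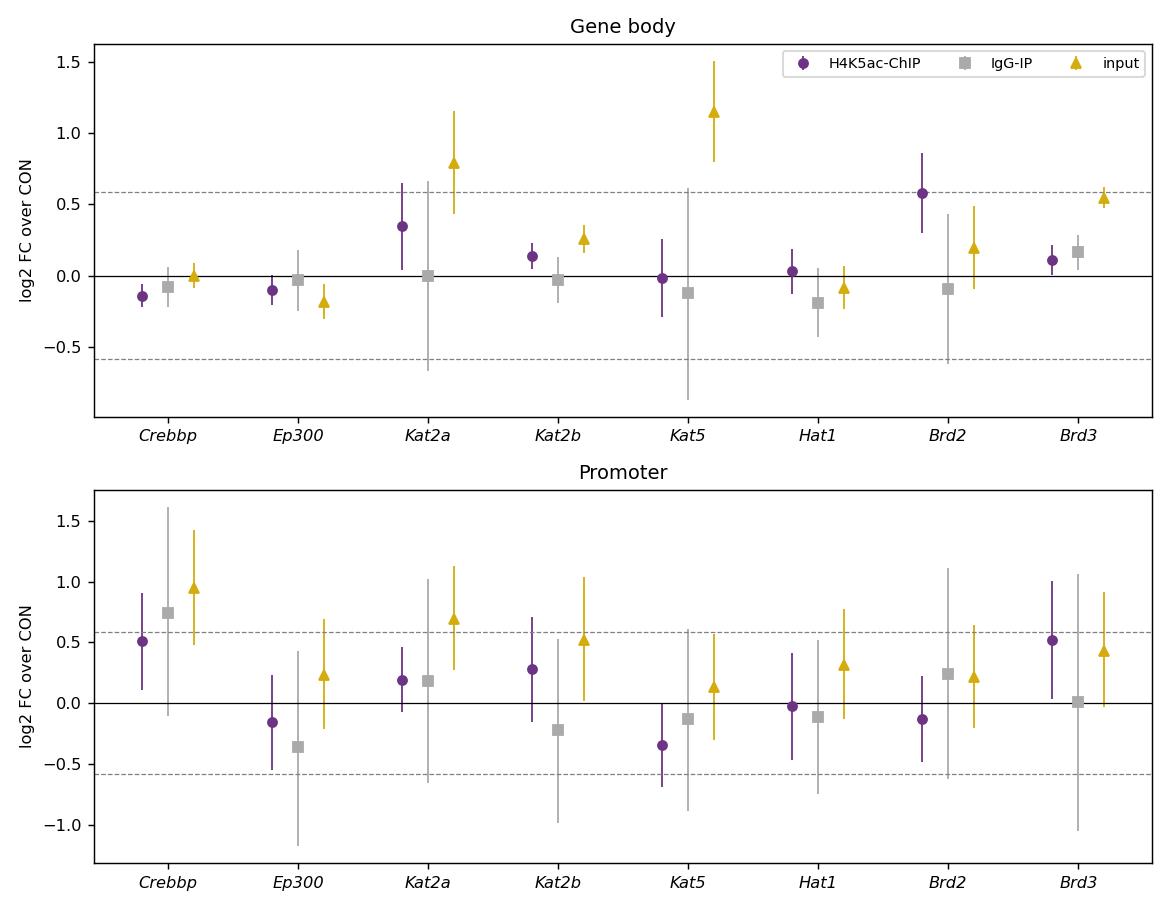
FC over CON, as a log2 ratio, for H4K5ac-ChIP, IgG-IP and input over the gene body (top) and the promoter (bottom) of each gene. Points are ratios of single libraries, bars are exact 95% binomial intervals and dashed lines mark 1.5-fold. No H4K5ac-ChIP point lies beyond the dashed lines, Brd2 being nearest at 0.58 over the gene body, whereas the inputs of Kat5 (1.15) and Kat2a (0.79) over the gene body do, as do input (0.95) and IgG-IP (0.74) of Crebbp and input of Kat2a (0.70) over the promoter.

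A list of 41 other acetyltransferase and bromodomain genes, all found in the annotation, was set beside the members. Over gene bodies 10 of 11 acetyltransferase and 19 of 30 bromodomain genes were at least 1.5-fold denser in H4K5ac-ChIP than in IgG-IP in FC, and 11 and 22 in CON, with none as far below. Together these were 29 of 41 in FC and 33 of 41 in CON, beside 56.2% and 51.9% of all tested genes. The median log2 ratio of the 41 was 0.78 in FC and 0.80 in CON, and that of the 8 members 0.71 and 0.53. The highest was Zmynd8, which encodes a multivalent chromatin reader, at 2.33 (2.20 to 2.46), and the lowest Brd8, a bromodomain subunit of the NuA4-type complex, at 0.08 (-0.18 to 0.35), and the members apart from Brd3 lay within this range in FC. None of the 41 was 1.5-fold apart between FC and CON over the gene body, where the median was -0.03, and over promoters 2 were higher and 1 lower in FC by that fold, against 7.63% of all tested genes in either direction.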

How the data were processed

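H4K5ac-ChIP, IgG-IP and input libraries of FC and CON hippocampus, 1 of each, were analysed as aligned reads. Per the labels and methods, the authors sequenced on SOLiD, aligned to mm9 with Bioscope and deposited 1 line per read with a score, the mapping quality, which ran from 4 to 100. Depth was 14549689 to 45673239 reads. Reads overlapping a region by at least 1 bp were counted with Python 3.11.15, numpy 2.4.6, pandas 2.3.3 and scipy 1.17.1, and sequences were read with samtools 1.23.1. Gene models were GENCODE vM1 on mm9. Density is reads per kb scaled to 1000000 aligned reads (RPKM). Intervals are exact Poisson (densities) or Clopper-Pearson (ratios) at 95%. They cover counting error only, and can be too narrow even for that, since PCR copies are not independent molecules. With 1 library per group no test between groups was made. Genes with at least 20 reads in both libraries together were compared, and 1.5-fold was the line used for counts. The ratios and their intervals were tested on simulated counts.

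The 8 members and the gene lists were chosen with earlier results of these data known. All members are named with values, overlapping genes without, and of the list of other acetyltransferase and bromodomain genes the highest and lowest gene-body ratio over IgG-IP in FC and any gene 1.5-fold apart between FC and CON over the gene body. Alternatives were 1 read per position and strand, scores of at least 20, read midpoints, the interval of the longest coding transcript, parts without overlapping genes, input as the control, subtraction of the median of all genes or of genes of the same GC content, a 2 kb promoter, the first 1 kb, subtraction of control ratios and no minimum of reads. Library totals without the densest 1% of windows of 10 kb and Brd3 without its dense stretch were chosen after seeing the data.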

Additional observations from a re-analysis of the deposited data

Results flagged for a closer look

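A few values had opposite signs in FC and CON. None of these differences was tested, because each group has 1 library. The gene body of Hat1 gave a log2 H4K5ac-ChIP to IgG-IP ratio of 0.17 for FC and -0.047 for CON. The log2 density of the first 2 kb over the rest of the gene was 0.030 in FC and -0.60 in CON for Ep300, and 0.75 and -0.12 for Kat2b. From the longest coding transcript Ep300 gave 0.37 and 0.26, of the same sign. For Kat5 it was 0.19 and -0.048, and for Hat1 0.33 and -0.23. Of these 5 pairs the counting intervals were apart for Kat2b alone. For the first 2 kb over the rest, input gave -0.26 in FC and -0.86 in CON for Ep300, and -0.20 and -0.67 for Kat2b. For Kat5 input gave -0.30 and -0.25, and for Hat1 0.19 and -0.25. Each of these lay below the H4K5ac-ChIP value of its group, so that less input no pair of the first 2 kb had opposite signs.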

How the results depend on the processing

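Of 142 alternative values of the 14 summary results, 119 stayed within the counting interval or, for counts, within 1.5-fold of the main count. A further 22 moved and 1 reversed. Of 592 values of single members 489 stayed, 88 moved and 15 reversed. Reversed was used only where the main ratio was at least 1.5-fold, and not for summary medians of the first 2 kb. Other changes of sign count as stayed or moved. Some alternatives could not change a value, such as the unshared part of a gene without overlaps, or removal of the Brd3 stretch for other members. With input as the control the gene-body median in FC was 0.40 with 1 member 1.5-fold denser (22.9% of all genes), and 2 promoters were in FC (29.4%). In CON 4 gene bodies (42.3%) and 6 promoters (43.2%) were. Less the median of all genes, the gene-body medians were 0.0091 (FC) and -0.087 (CON) with 1 member each, and Kat2b was -0.058 in FC. Promoters gave 0.29 with 1 member in FC and 3 members in CON, and Kat2b -0.035 in FC. Less genes of the same GC content, gene-body medians were 0.050 and -0.14 with 0 members 1.5-fold higher in each and 1 (FC) and 2 (CON) as far lower, Kat2a was -0.23 in FC and -0.27 in CON, and Brd2 -0.44 in FC and -0.81 in CON. Promoter medians were then 0.12 with 1 member higher in FC and -0.010 with 2 in CON, and 1 lower in each, Crebbp was -0.51 and -0.061, and Brd3 -0.052 in CON. For these counts less a median, of all genes or of genes of the same GC content, the share of all genes was not computed. The Brd3 gene body was 1.25 and 1.07 over its longest coding transcript, and 0.91 and 0.70 without the dense stretch. FC over CON less input gave medians of -0.13 over gene bodies, with 1 member (Kat5, -1.16) 1.5-fold apart (20.8% of genes), and -0.37 over promoters. Less IgG-IP 1 gene body (Brd2) was apart (11.9%), and with 2 kb promoters 1 (Crebbp) was (15.4%). In CON the first 2 kb over the rest was 0.26 for Ep300, both at its longest coding transcript and less input, and -0.26 for Brd2 at its own. Less input the CON median of the members changed sign and was above 0, since H4K5ac-ChIP lay above input in all members but Crebbp. Without a minimum of reads 11.5% of gene bodies were apart between FC and CON, against 4.64%. Apart from what the constructions themselves change, the cause was not tested. No paired analysis was possible because each group has 1 library of each kind, which also left no replicate to leave out. Short genes and promoters rest on few IgG-IP reads, from 16 to 49 per 5 kb promoter, which limits their ratios.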
